A study of Mus musculus with 12 samples.

Results

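The cGAS-STING pathway was followed through 8 of its components, Cgas, Sting1, Tbk1, Ikbke, Irf3, Trex1, Samhd1 and Enpp1, in the hearts of 12 mice. They were chosen by gene symbol out of the 55885 genes listed for each heart, with earlier results of these data known. Male C57BL/6 mice (C57BL/6J in the methods) 8 weeks old were either wild-type or STING-/-, a line bought from the Jackson Laboratory with the genotype Tmem173-/- (Tmem173 is the older symbol of Sting1). By the methods, wild-type mice came from another supplier, Beijing Vital River, so genotype and source of the animals cannot be told apart. Wild-type mice without cisplatin formed the Saline group and wild-type mice with cisplatin the CDDP group, while STING-/- and STING-/-+CDDP were the same pair of treatments in the knockout, with 3 hearts in each group. Cisplatin is a platinum drug that crosslinks DNA. On days 1, 8 and 15 the treated mice received 6 mg/kg into the peritoneum, and hearts were collected on day 22. Labels call the mice without cisplatin untreated, whereas the methods name a saline group. Nothing was stated on which chambers were taken, and RNA of the whole piece of tissue was sequenced.

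Cytosolic DNA, from the nucleus, from mitochondria or from microbes, is bound by cGAS, which then makes the small messenger cGAMP. cGAMP binds STING on the endoplasmic reticulum, STING moves to the Golgi and recruits the kinase TBK1, and TBK1 phosphorylates the transcription factor IRF3, which enters the nucleus and switches on type I interferon genes. TREX1 and SAMHD1 limit the nucleic acid that can start this chain, and ENPP1 destroys cGAMP outside cells. Most of these steps are changes of protein state and place, which an mRNA level does not record.

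The deposited values were TPM (transcripts scaled to a fixed total per heart), which correct the reads of each gene for its length and then set the same sum for each heart. Levels of different genes can thus be set beside each other, but the number of reads behind a value is unknown. Each heart had 19680 to 21024 genes above 0. Differences between groups were tested as log2(TPM + 1) with limma, 1 model for all 12 hearts, over the 13815 genes that reached a TPM of 1 in 3 or more hearts, and p-values were adjusted by the Benjamini-Hochberg method over all of these genes. A gene was called changed at an adjusted p under 0.05. The added 1 understates the change of genes with low TPM. Of the 8 components, 7 passed the filter, and Cgas, which did not, was compared with exact permutation tests. Cardiomyocyte markers (Myh6, Myl2, Tnnt2 and others) were high in every heart, with a summed TPM of 21572 to 44506. The sum of 4 atrial markers ranged from 310.2 to 38939 between hearts. In bulk tissue, fewer cells of a type and less RNA per cell cannot be told apart.

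The hearts contained RNA of all 8 components, at levels that spanned more than an order of magnitude. The order from high to low was similar in the hearts. Samhd1 or Irf3 held the first place in 11 of 12 hearts, and Sting1 held it in the first CDDP heart. Irf3 was above Samhd1 in 7 of 12 hearts, so the positions of these neighbours in the order were not fixed. Trex1 came next and was above Tbk1 in 10 of 12 hearts, and Tbk1 was above Sting1 in 10 of 12. Enpp1 was above Ikbke in 10 of 12 hearts. Cgas was the lowest of the components in 12 of 12 hearts.

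**Figure D1:**
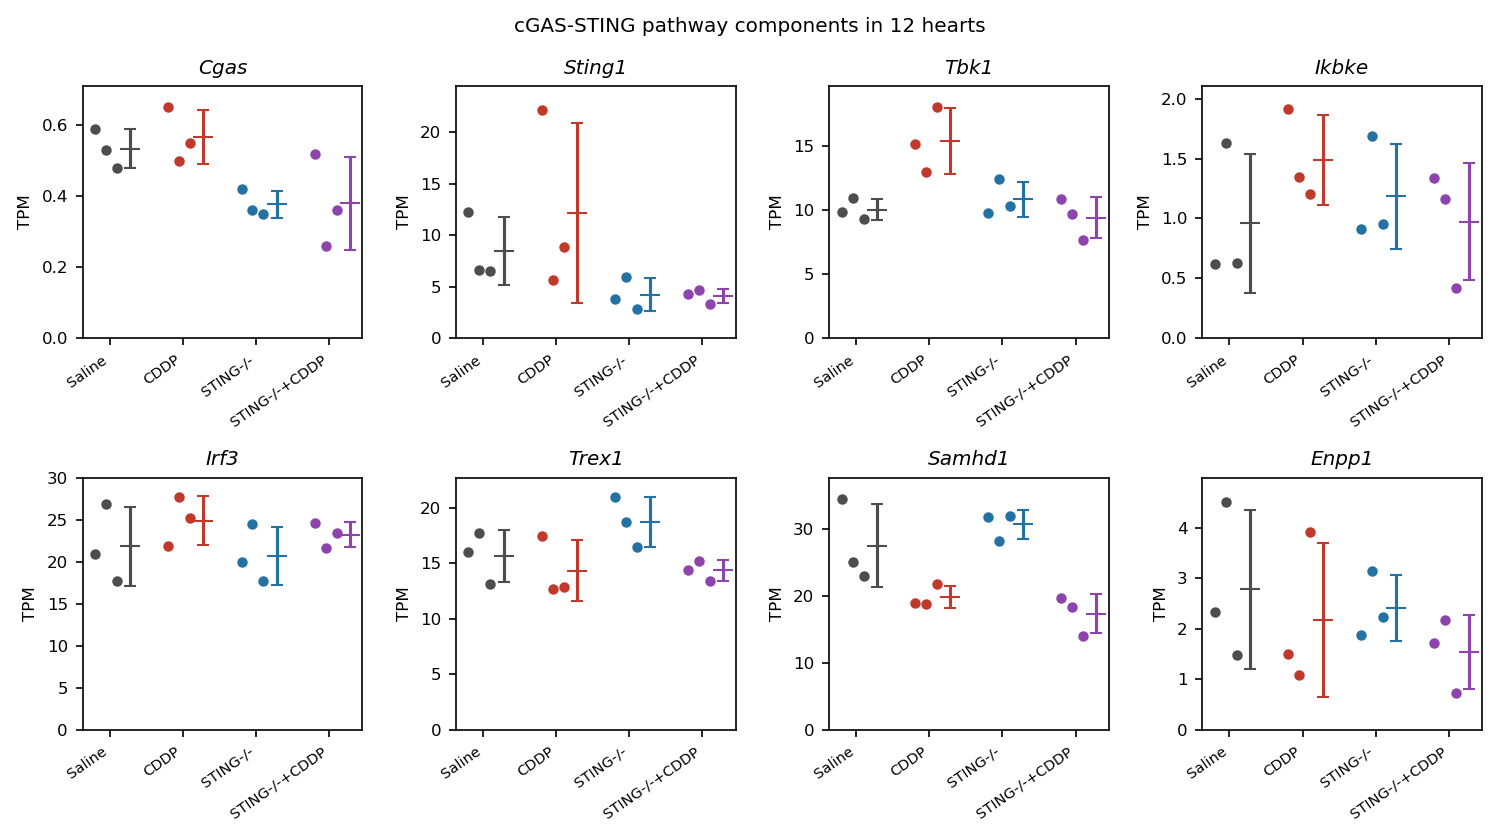
TPM of the 8 components in each of the 12 hearts. Each panel is a gene, with TPM on the vertical axis from 0 and the 4 groups on the horizontal axis. Points are hearts, and the bar beside them is the mean ± SD (n = 3). The 6 hearts with cisplatin lie below the 6 without it for Samhd1, and the CDDP hearts lie above the Saline hearts for Tbk1.

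Cgas (ENSMUSG00000032344), the DNA sensor, lies on the minus strand of chromosome 9 from 78430526 to 78443237 (GRCm38). Its TPM was 0.59, 0.53 and 0.48 in Saline hearts and 0.65, 0.50 and 0.55 in CDDP hearts. STING-/- hearts had 0.42, 0.36 and 0.35 TPM, and STING-/-+CDDP hearts 0.52, 0.26 and 0.36. Every STING-/- heart was thus below every Saline heart, and a single STING-/-+CDDP heart reached into the range of the wild-type hearts. The difference between STING-/- and Saline hearts was -0.16 on the log2(TPM + 1) scale (p = 0.10 in a two-sided exact permutation test, which is its floor for 3 hearts against 3). Averaged over treatment, the difference between STING-/- and wild-type hearts was -0.17 (exact permutation test within each treatment, two-sided, p = 0.01). After Benjamini-Hochberg adjustment over the 6 comparisons of Cgas, the p of this exact permutation test was 0.06, and it missed the threshold. With cisplatin, the averaged difference was 0.02 (exact permutation test, p = 0.755). At levels this low the added 1 compresses differences, and with 0.1 in its place the averaged difference between genotypes was -0.46. Gm8093, which overlaps Cgas on the opposite strand, had a TPM of at most 1.23, and whether the counting used the strand is not given in the sources used here.

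Sting1 (ENSMUSG00000024349) encodes the receptor of cGAMP and is the gene mutated in the knockout. Its level was 12.3, 6.59 and 6.50 TPM in Saline hearts, 22.1, 5.62 and 8.81 in CDDP hearts, 3.82, 5.96 and 2.87 in STING-/- hearts and 4.26, 4.67 and 3.37 in STING-/-+CDDP hearts. Sting1 RNA was therefore present in the knockout, in which a value per gene cannot tell a transcript that lacks deleted exons from an intact one. Averaged over treatment, the STING-/- hearts were lower by a log2 fold change of -1.01 (95% interval -1.64 to -0.39, limma, adjusted p = 0.202). The 6 knockout hearts ranged from 2.87 to 5.96 TPM and the 6 wild-type hearts from 5.62 to 22.1, with an overlap that came from the second CDDP heart. The spread of Sting1 within groups, 0.57 as a log2 standard deviation, was the largest of the 7 tested components, beside a median of 0.26 over all tested genes. The heart with the highest Sting1, the first CDDP heart, also had the highest summed TPM of 6 neutrophil markers (S100a8, S100a9, Csf3r, Cxcr2, Retnlg and Ly6g), 1096 beside at most 89.7 in the other hearts. The part of these cells in the Sting1 value was not tested. Without that heart, the difference between STING-/-+CDDP and CDDP hearts moved from -1.18 to -0.67 on the log2 scale, and that between CDDP and Saline hearts turned to -0.18. Of the 6 nearest genes that entered the fit, Spata24, Dnajc18 and Ecscr on one side of Sting1 and Ube2d2a, Gm50371 and Cxxc5 on the other, none was called between the genotypes. Ecscr, like Sting1, was highest in the first CDDP heart, at 65.3 TPM beside at most 42.3 in the other hearts.

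Tbk1 (ENSMUSG00000020115), the kinase that STING recruits, lies on the minus strand of chromosome 10 from 121546455 to 121586787. Its TPM was 9.85, 10.9 and 9.34 in Saline hearts and rose to 15.1, 13.0 and 18.1 in CDDP hearts. Knockout values were 9.76, 12.4 and 10.3 in STING-/- and 10.9, 9.72 and 7.69 in STING-/-+CDDP hearts. All 3 CDDP hearts were above all hearts of the other 3 groups, whose ranges overlapped with each other. Between CDDP and Saline hearts alone, 14.9% of all tested genes were higher without overlap. The rise with cisplatin in wild-type hearts was 0.56 on the log2 scale (95% interval 0.19 to 0.93, limma, adjusted p = 0.0394). This made Tbk1 the 1 component of 7 that was called between CDDP and Saline hearts, a comparison in which 18.9% of all tested genes were called and 8.52% were called higher. The call was lost without the filter on low values (adjusted p = 0.0588 by limma), when only the 6 compared hearts were fitted (adjusted p = 0.115) and with the replicate number as a block (adjusted p = 0.0682). It was also lost, at adjusted p-values of up to 0.118 by limma, when the first heart or the third of the Saline, CDDP or STING-/- group, or the second STING-/-+CDDP heart, was left out.

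In the knockout, Tbk1 was not called with cisplatin. The difference between STING-/-+CDDP and STING-/- hearts was -0.19 on the log2 scale, with a 95% interval from -0.56 to 0.18 (limma, adjusted p = 0.677). All 3 STING-/-+CDDP hearts were below all 3 CDDP hearts, a pattern that 15.6% of all tested genes shared. The difference between these groups was -0.65 (95% interval -1.02 to -0.28), but the adjusted p of 0.0806 by limma missed the threshold. Under scaling by the median of ratios the same difference was -0.54 (limma, adjusted p = 0.0261), and under quantile normalization -0.51 (limma, adjusted p = 0.0289). The interaction, which compares the cisplatin response of the 2 genotypes directly, was -0.75 (95% interval -1.27 to -0.23, unadjusted p = 0.00905, limma, adjusted p = 0.333) and was not called. In the whole table the interaction called 0.00724% of the tested genes.

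The region around the start of Tbk1 is shown because Tbk1 was the component that rose in CDDP hearts, and that of Ikbke, its closest relative among the components, for comparison. Both are RefSeq promoters of GRCm38.p6, 5′ to 3′ on the minus strand, with 250 bases before and 50 after the start, at chr10:121586745-121587044 for Tbk1 and chr1:131279514-131279813 for Ikbke. Capitals mark a match to the AP-1 motif TGANTCA, searched on both strands.
Tbk1: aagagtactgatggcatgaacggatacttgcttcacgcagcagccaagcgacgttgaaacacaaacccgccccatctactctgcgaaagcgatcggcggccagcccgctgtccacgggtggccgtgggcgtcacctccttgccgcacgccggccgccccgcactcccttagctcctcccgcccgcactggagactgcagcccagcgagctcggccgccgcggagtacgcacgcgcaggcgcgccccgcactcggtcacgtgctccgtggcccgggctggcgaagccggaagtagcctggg
Ikbke: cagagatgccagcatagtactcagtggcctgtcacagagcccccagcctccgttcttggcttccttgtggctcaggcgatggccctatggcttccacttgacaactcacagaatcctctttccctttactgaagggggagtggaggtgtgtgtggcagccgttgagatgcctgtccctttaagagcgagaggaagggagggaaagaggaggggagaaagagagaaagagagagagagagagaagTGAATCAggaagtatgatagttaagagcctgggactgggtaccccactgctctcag
The Tbk1 window was 69% G and C and held 37 CpG dinucleotides, beside a median of 52.7% and 7 over 32851 promoters. The Ikbke window held 4 CpG and a single AP-1 match, TGAATCA, from 6 bases before the start to the start itself. Of all promoters, 7.81% held this motif. No match to AP-1, to the cAMP response element TGACGTCA, to the interferon-stimulated response element (GAAA, any 2 bases, GAAA) or to the gamma-activated site TTCNNNGAA was found in the Tbk1 window, which says only that these letters are not in these 300 bases.

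Ikbke (ENSMUSG00000042349) encodes IKKε, a kinase related to TBK1 that can also phosphorylate IRF3, and lies on the minus strand of chromosome 1 from 131254343 to 131279606. Its TPM was 0.62, 1.63 and 0.63 in Saline hearts and 1.91, 1.35 and 1.20 in CDDP hearts. STING-/- hearts had 0.91, 1.69 and 0.95 TPM, and STING-/-+CDDP hearts 1.34, 1.16 and 0.42. All groups overlapped. The difference between CDDP and Saline hearts was 0.37 on the log2 scale, with a 95% interval from -0.21 to 0.95 (limma, adjusted p = 0.355). Tbk1 was the more abundant kinase in 12 of 12 hearts, and the ratio of Tbk1 to Ikbke within a heart ranged from 6.71 to 18.3. Among all pairs of the tested components, Tbk1 and Ikbke had the highest correlation over the 12 hearts (Pearson's r = 0.69, Spearman's rho = 0.80), a description of hearts that share groups and scaling. Antisense genes that overlap Ikbke, Gm28914 and Gm28913, had a TPM of at most 1.07.

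Irf3 (ENSMUSG00000003184), the transcription factor downstream of TBK1, lies on the plus strand of chromosome 7 from 44997648 to 45002848. Its TPM was 20.98, 26.9 and 17.7 in Saline hearts, 21.9, 27.7 and 25.2 in CDDP hearts, 19.9, 24.5 and 17.7 in STING-/- hearts and 24.6, 21.7 and 23.4 in STING-/-+CDDP hearts. The groups overlapped in every comparison. With cisplatin, averaged over genotype, the difference was 0.18 on the log2 scale with a 95% interval from -0.09 to 0.45 (limma, adjusted p = 0.337), and between genotypes, averaged over treatment, it was -0.08 with an interval from -0.35 to 0.19 (limma, adjusted p = 0.850). Irf3 overlaps Bcl2l12 on the opposite strand, a gene with 3.47 to 8.84 TPM that was itself not called in any comparison.

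Trex1 (ENSMUSG00000049734), the exonuclease that degrades DNA in the cytosol, lies on the minus strand of chromosome 9 from 109057933 to 109059734. Its TPM was 16.0, 17.8 and 13.2 in Saline hearts and 17.5, 12.6 and 12.9 in CDDP hearts. Knockout values were 20.96, 18.7 and 16.5 in STING-/- and 14.4, 15.2 and 13.4 in STING-/-+CDDP hearts. All STING-/-+CDDP hearts were below all STING-/- hearts, while CDDP and Saline hearts overlapped. The difference between STING-/-+CDDP and STING-/- hearts was -0.36 on the log2 scale (95% interval -0.72 to 0.01, limma, adjusted p = 0.375). Trex1 shares its strand and part of its sequence with Atrip, whose product recruits the kinase ATR to damaged DNA, so reads of the 2 genes may have been divided between them. Atrip was higher in CDDP than in Saline hearts by 0.45 on the log2 scale (limma, adjusted p = 0.0430).

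Samhd1 (ENSMUSG00000027639) encodes a hydrolase that lowers the pool of deoxynucleotides and acts at stalled replication forks, and it was the component with the most regular change. Its TPM was 34.6, 25.04 and 23.0 in Saline hearts and 18.9, 18.9 and 21.7 in CDDP hearts. STING-/- hearts had 31.9, 28.3 and 32.05 TPM, and STING-/-+CDDP hearts 19.8, 18.3 and 14.1. The 6 hearts with cisplatin, at 14.1 to 21.7 TPM, did not overlap the 6 without it, at 23.0 to 34.6, and 6.15% of all tested genes were lower with cisplatin in this way. Averaged over genotype, the log2 fold change with cisplatin was -0.62 (95% interval -0.89 to -0.35, limma, adjusted p = 0.00608). Samhd1 was the 1 component of 7 called in this comparison, in which 19.8% of all tested genes were called and 12.6% were called lower. The averaged change kept its call under each alternative run, at -0.67 to -0.53 and adjusted p-values of 0.00368 to 0.0177 by limma. Within 1 genotype the difference missed the threshold. It was -0.44 between CDDP and Saline hearts (95% interval -0.82 to -0.05, limma, adjusted p = 0.104) and -0.80 between STING-/-+CDDP and STING-/- hearts (95% interval -1.18 to -0.41, limma, adjusted p = 0.0614). The second of these passed when mitochondrially encoded genes were removed before scaling (limma, adjusted p = 0.0436) or when the first Saline heart was left out (adjusted p = 0.0365).

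Samhd1 did not separate the genotypes. Averaged over treatment, the difference between STING-/- and wild-type hearts was -0.01 on the log2 scale, with a 95% interval from -0.28 to 0.26 (limma, adjusted p = 0.985). The interaction of cisplatin and genotype was -0.36 (95% interval -0.91 to 0.18, limma, adjusted p = 0.588). In the order of the groups, STING-/- (30.7 ± 2.15, SD, n = 3) and Saline (27.6 ± 6.18) were neighbours within their spread, as were CDDP (19.8 ± 1.64) and STING-/-+CDDP (17.4 ± 2.99).

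**Figure D2:**
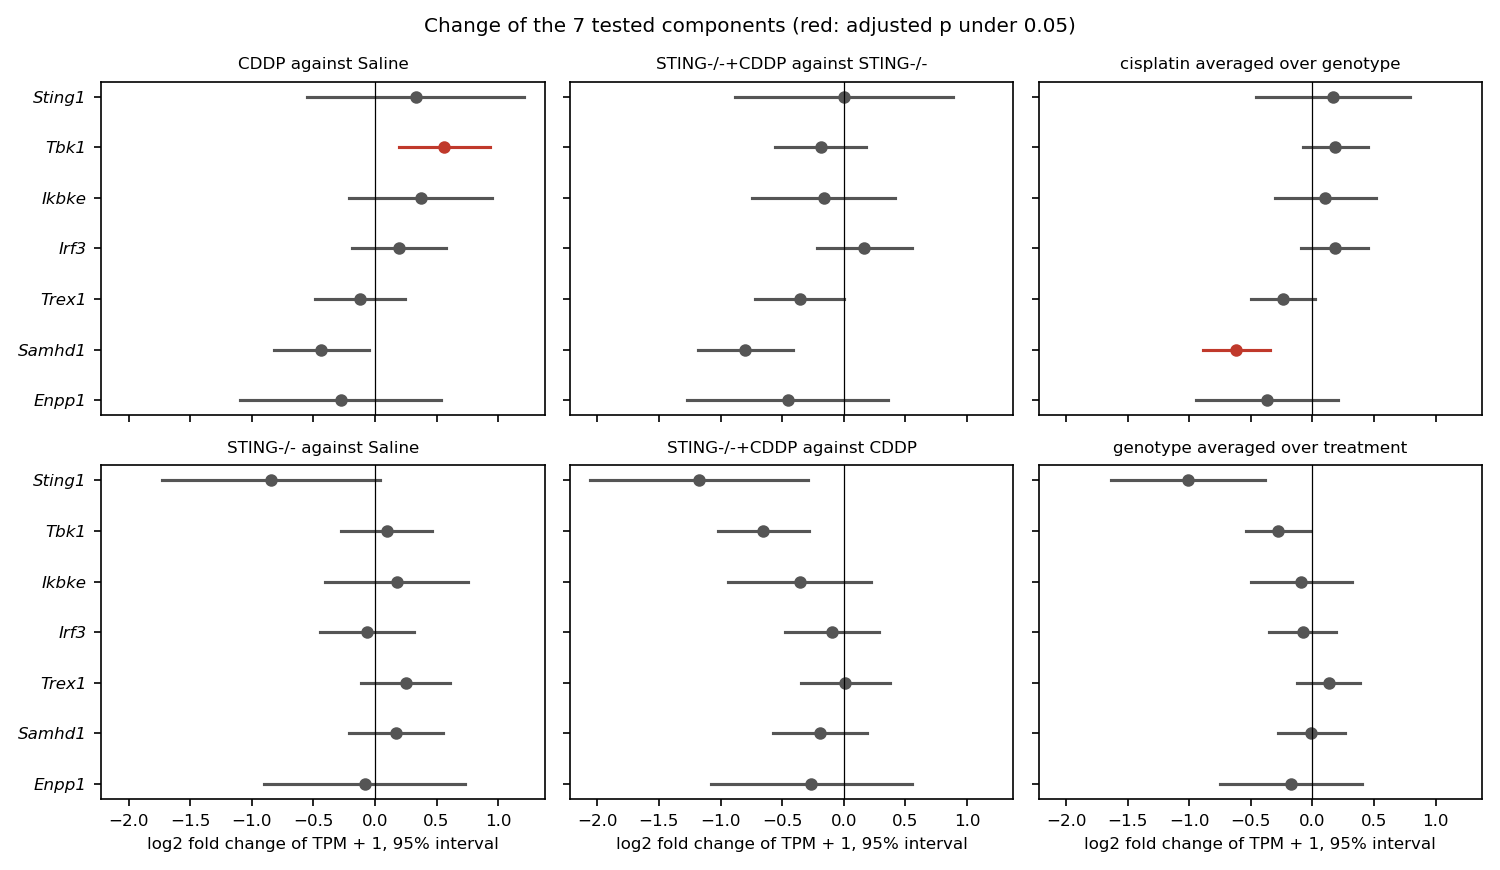
Log2 fold change of TPM + 1 for the 7 tested components in 6 comparisons, from the limma fit of 12 hearts. Points are estimates, lines are 95% intervals, the vertical line is at 0, and red marks an adjusted p under 0.05. Tbk1 between CDDP and Saline hearts (0.56) and Samhd1 with cisplatin averaged over genotype (-0.62) are the red points.

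Samhd1 lies on the minus strand of chromosome 2 from 157097533 to 157135265 in the GENCODE annotation. Its RefSeq promoter (GRCm38.p6, chr2:157135047-157135346, minus strand) is shown, 5′ to 3′, because Samhd1 was the component that fell with cisplatin. Capitals mark a match to the gamma-activated site TTCNNNGAA, a motif known from interferon-responsive genes.
Samhd1: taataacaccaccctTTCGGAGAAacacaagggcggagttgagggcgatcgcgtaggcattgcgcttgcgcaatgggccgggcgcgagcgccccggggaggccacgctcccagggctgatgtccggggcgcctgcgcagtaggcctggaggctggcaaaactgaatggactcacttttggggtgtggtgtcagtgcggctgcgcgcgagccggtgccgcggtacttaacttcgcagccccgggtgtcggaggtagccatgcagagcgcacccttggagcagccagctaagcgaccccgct
The match, TTCGGAGAA, lies at position -235 to -227, counted from the start base as 0. Such a match was found in 8.3% of the 32851 promoters. The window was 65.7% G and C with 29 CpG. RefSeq promoters were searched for 7 of the 8 components, and that of Sting1 was not searched. No promoter of these 7 matched the interferon-stimulated response element, which 3.44% of all promoters held, or the cAMP response element, which 1.79% held.

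Markers of macrophages fell in the same hearts as Samhd1. The summed TPM of 7 macrophage markers (Cd68, Csf1r, Adgre1, C1qa, C1qb, Mrc1 and Cd163) was 421.8 to 547.6 in Saline hearts and 122.9 to 255.9 in CDDP hearts. It was 388.5 to 584.5 in STING-/- hearts and 165.1 to 324.2 in STING-/-+CDDP hearts. None of the 7 markers was at 0 in every heart. With cisplatin averaged over genotype, 5 of the 7 were called lower, beside 12.6% of all tested genes. Of the 6 endothelial markers, 3 were called lower in the same comparison, and their sum was 314.6 to 531.7 without cisplatin and 282.6 to 435.9 with it. All 5 red blood cell markers were called lower (median log2 fold change -3.76), with a summed TPM of 4146 to 9317 in Saline, 41.95 to 1271 in CDDP, 263.7 to 1465 in STING-/- and 81.93 to 311.1 in STING-/-+CDDP hearts. Of the 6 fibroblast markers 3 were called lower (median -0.88), while their sum, 785.8 to 1860 without cisplatin and 651.0 to 2067 with it, overlapped. Most of that sum was a single marker, Dcn, at 515.7 to 1366 TPM without cisplatin and 587.7 to 1967 with it. Of the 4 smooth muscle and pericyte markers 2 were called lower (median -0.76), with a sum of 293.9 to 571.9 without cisplatin and 134.2 to 333.5 with it. The sum of 6 lymphocyte markers was low throughout, at 1.42 to 8.47 without cisplatin and 0.23 to 1.25 with it. Only 1 of these 6 entered the fit, and it was called lower. The part of these cells in the fall of Samhd1 was not tested.

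**Figure D3:**
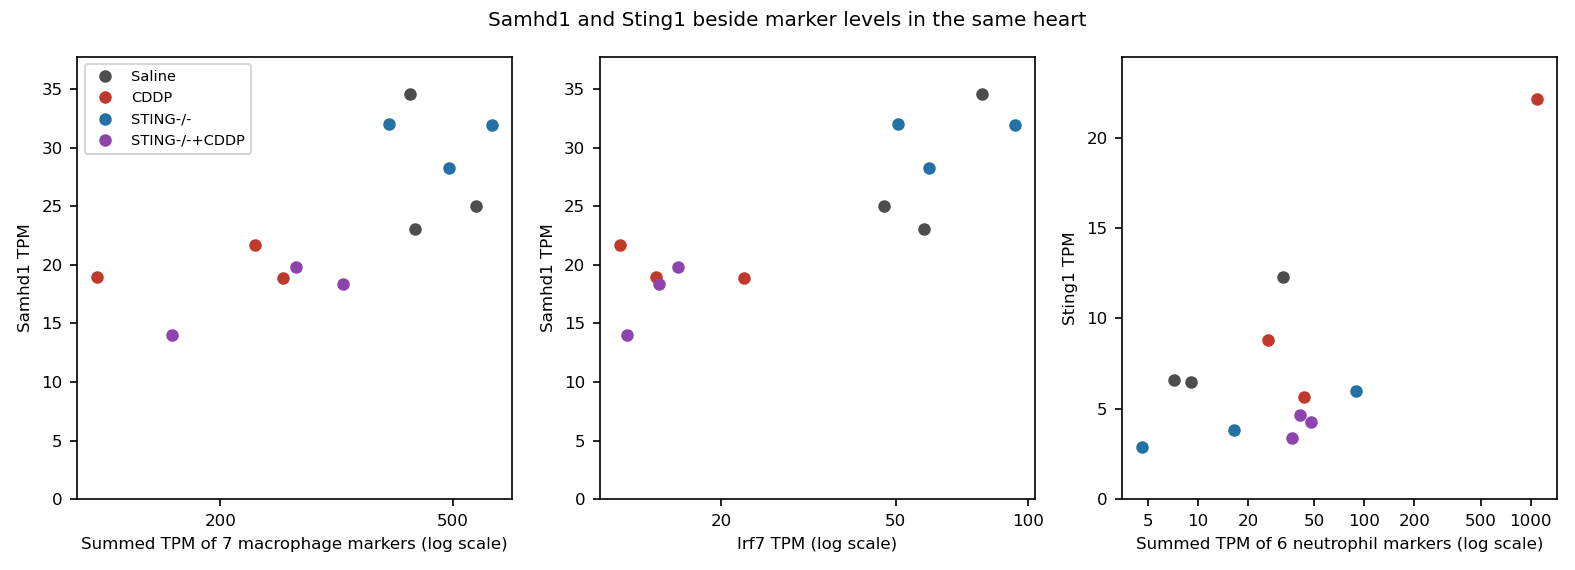
Samhd1 TPM against the summed TPM of 7 macrophage markers (left) and against Irf7 TPM (middle), and Sting1 TPM against the summed TPM of 6 neutrophil markers (right), with a log horizontal axis and 1 point per heart coloured by group. The 6 hearts with cisplatin lie at low Samhd1, low macrophage marker sums (at most 324.2) and low Irf7, and the first CDDP heart stands alone at a neutrophil marker sum of 1096.

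Enpp1 (ENSMUSG00000037370), the ectoenzyme that hydrolyses cGAMP outside cells, lies on the minus strand of chromosome 10 from 24637914 to 24712159. Its TPM was 2.34, 4.52 and 1.48 in Saline hearts, 1.51, 1.08 and 3.92 in CDDP hearts, 1.87, 3.14 and 2.23 in STING-/- hearts and 1.71, 2.17 and 0.73 in STING-/-+CDDP hearts. The groups overlapped in each comparison, and the spread within groups, 0.51 as a log2 standard deviation, came second to that of Sting1. With cisplatin, averaged over genotype, the difference was -0.37 with a 95% interval from -0.94 to 0.21 (limma, adjusted p = 0.364). The highest Enpp1 value of the Saline, CDDP and STING-/- groups came from the heart with the highest atrial marker sum of its group, at 38939, 14621 and 12835 TPM, but that of the STING-/-+CDDP group did not. In each of the 4 groups, the heart with the highest Enpp1 also had the highest sum of 6 fibroblast markers. These sums, which were mostly Dcn, were 1860 in Saline, 2067 in CDDP, 1364 in STING-/- and 1500 in STING-/-+CDDP hearts. The same held for the sum of 4 adipocyte markers (Adipoq, Plin1, Cidec and Ucp1), at 19.4, 24.3, 60.3 and 13.0. The part of atrial tissue, fibroblasts or adipocytes in the Enpp1 values was not tested.

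Few components were called in any comparison. The shares of all tested genes called are at an adjusted p under 0.05 (limma). For the counts at an unadjusted p, no share of all tested genes is given here. Between STING-/-+CDDP and CDDP hearts 0 of 7 were called (2 at an unadjusted p under 0.05), beside 1.22% of all tested genes, and 2 of the 7, Sting1 and Tbk1, were lower without overlap, as were 15.6% of all tested genes. Between STING-/- and Saline hearts 0 of 7 were called (0 at an unadjusted p under 0.05), beside 0.0724% of all genes, and Sting1 was lower without overlap, as were 4.88% of genes. Between STING-/-+CDDP and STING-/- hearts 0 of 7 were called (1 at an unadjusted p under 0.05, Samhd1), beside 0.934%. Trex1 and Samhd1 were lower there without overlap, as were 16.9% of genes. Between CDDP and Saline hearts, Tbk1 was higher without overlap, as were 14.9% of genes, and Samhd1 lower, as were 17.1%. Averaged over treatment, 0 of 7 were called between the genotypes (2 at an unadjusted p under 0.05, Sting1 and Tbk1), beside 0.181% of all genes.

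Ratios within a heart do not depend on a factor that scales all its genes alike, which quantile normalization is not. They set the components against each other. The ratios shown were picked after the values had been seen and are given without a test. Samhd1 to Irf3, the most abundant components, was 0.930 to 1.81 in hearts without cisplatin and 0.600 to 0.864 in hearts with it. Its mean was 1.29 in Saline, 0.803 in CDDP, 1.52 in STING-/- and 0.750 in STING-/-+CDDP hearts, above 1 in the groups without cisplatin and below 1 in those with it. Tbk1 to Trex1 was 0.865 to 1.41 in CDDP hearts and 0.466 to 0.754 in the other 9 hearts. Trex1 to Cgas was 47.1 to 51.9 in STING-/- hearts and 27.1 to 33.5 in Saline hearts, and it spread from 27.7 to 58.5 in STING-/-+CDDP hearts.

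**Figure D4:**
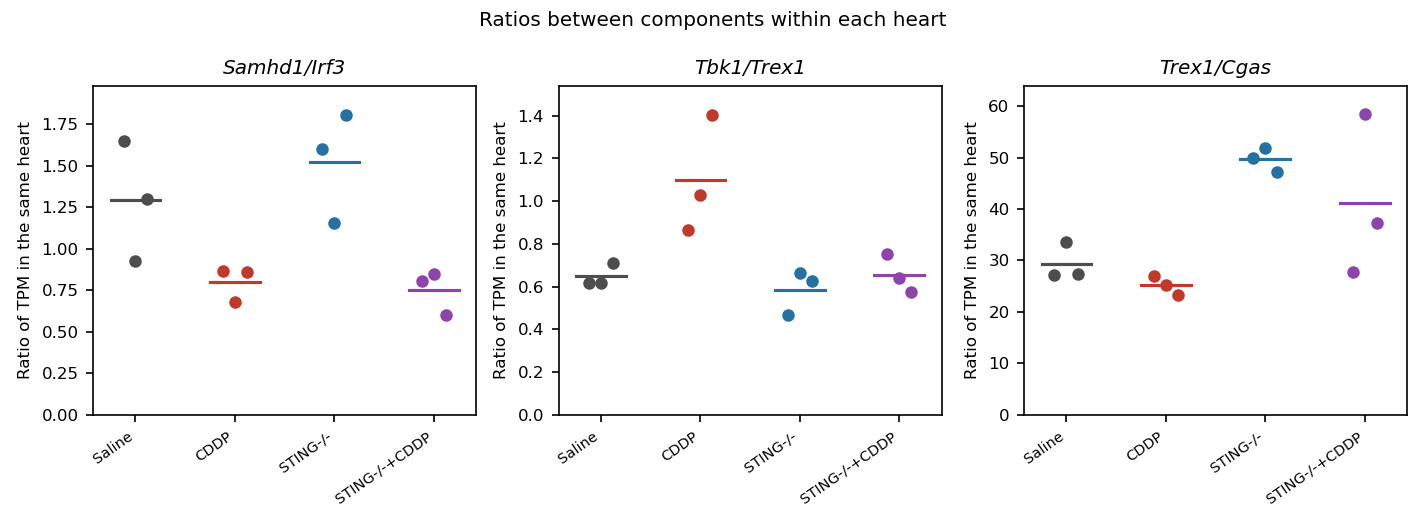
Ratios of TPM between pairs of components within the same heart, on axes that start at 0. Points are hearts and lines are group means (n = 3). Samhd1/Irf3 is below 0.864 or at it in the 6 hearts with cisplatin and at least 0.930 in the others, and Tbk1/Trex1 is highest in CDDP hearts.

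For each tested component, the genes with the most similar levels over the 12 hearts were listed as a description. Those nearest to Samhd1 were Eif2ak2 (r = 0.98, rho = 0.96), Ifih1 (r = 0.96, rho = 0.96) and Gbp3 (r = 0.96, rho = 0.92). For Tbk1 they were Sdad1 (r = 0.99, rho = 0.96), Cep120 (r = 0.97, rho = 0.93) and Plaa (r = 0.97, rho = 0.94). The gene nearest to Sting1 was Relb (r = 0.95, rho = 0.87), followed by Pde4b and Ckap2. Those of Ikbke were Vwa5a (r = 0.97, rho = 0.97), Tle3 and Ednrb, and those of Irf3 were Gm11734 (r = 0.92, rho = 0.93), Pef1 and Flii. For Trex1 they were Limk1 (r = 0.92, rho = 0.89), Nup35 and AI467606, and for Enpp1 Ncstn (r = 0.97, rho = 0.98), 9530068E07Rik and Ube2q2. The hearts share groups and scaling, so such values are high for many pairs of genes.

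Around the components, 106 other genes of the pathway were followed in 7 lists, of which 97 passed the filter. With cisplatin averaged over genotype, 27 of them were called, 5 higher and 22 lower, which is 27.8% beside 19.8% of all tested genes. Scaling by the median of ratios or by quantiles called 36 each, with 11 higher and 25 lower, while the calls over all tested genes went from 2740 to 3819 and 3984. Between CDDP and Saline hearts 18 of 97 (18.6%) were called, near the 18.9% of all tested genes, and between STING-/-+CDDP and STING-/- hearts 8 of 97 (8.25%), beside 0.934%. Between genotypes, 1 was called in the hearts with cisplatin, beside 1.22% of all tested genes, and 0 in those without it, beside 0.0724%. At an unadjusted p under 0.05 (limma) there were 11 and 4 of the 97. The share of all tested genes at that looser threshold is not given here.

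The genes downstream of interferon held the largest share. Of the 17 tested members of the list of interferon ligands, receptor and targets, 11 were called lower with cisplatin averaged over genotype (64.7%) and 0 higher. Over all tested genes, 12.6% were called lower and 7.28% higher. The median log2 fold change of the list was -0.87 beside -0.05 over all tested genes. Among the 11 were Ccl5, Ifit3, Ifit1, Isg15, Rsad2, Irf9, Mx1, Ifit2, Oasl1 and Stat2. Isg15, a ubiquitin-like protein induced by interferon, was 58.0, 32.0 and 30.3 TPM in Saline hearts and 14.2, 16.6 and 12 in CDDP hearts. Knockout values were 66.2, 40.6 and 34.2 in STING-/- and 18.4, 13.3 and 11.1 in STING-/-+CDDP hearts. The cisplatin hearts of both genotypes were thus below all hearts without it, a pattern that 6.15% of all tested genes shared. Isg15 fell between CDDP and Saline hearts (log2 fold change -1.38, limma, adjusted p = 0.00960) and between STING-/-+CDDP and STING-/- hearts (-1.63, limma, adjusted p = 0.0278). The receptor genes Ifnar1 (-0.16, adjusted p = 0.394 by limma) and Ifnar2 (-0.30, adjusted p = 0.186 by limma) were not called. Ifnb1 and Ifna4 were listed at 0 in every heart. In the comparisons between genotypes 0 of the 17 were called, with at most 1 at an unadjusted p under 0.05. Of all tested genes, 1.22% were called between genotypes with cisplatin, 0.0724% without it and 0.181% averaged over treatment. As given above, some or all markers of macrophages, endothelial cells, red blood cells, fibroblasts, smooth muscle and pericytes, and lymphocytes fell with cisplatin too. The part of these cells in the fall of this list was not tested.

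Among the partners of TBK1 and IRF3, 18 genes were tested and 5 were called with cisplatin averaged over genotype (27.8%, beside 19.8% of all tested genes). Irf7, the interferon-induced relative of Irf3, was 78.8, 47.0 and 58.0 TPM in Saline hearts and 14.2, 22.6 and 11.7 in CDDP hearts. STING-/- hearts had 93.4, 59.6 and 50.6 TPM, and STING-/-+CDDP hearts 15.9, 14.4 and 12.2. Irf7 fell in both genotypes, with a log2 fold change of -1.88 in wild-type hearts (limma, adjusted p = 0.00174) and -2.14 in STING-/- hearts (limma, adjusted p = 0.00753). Irf3, by contrast, was within its spread in each of these groups. Sqstm1, which encodes the autophagy receptor p62 and is a substrate of TBK1, was 165.8, 260.6 and 208.8 TPM in Saline hearts and 524.8, 818.0 and 751.7 in CDDP hearts. Knockout values were 203.6, 200.7 and 176.5 in STING-/- and 380.1, 359.4 and 370.9 in STING-/-+CDDP hearts. Every cisplatin heart was above every heart without it, a pattern whose share over all tested genes is not given here. Every CDDP heart was above every STING-/-+CDDP heart, as held for 15.6% of all tested genes. The rise was 1.72 in wild-type hearts (limma, adjusted p = 0.000601) and 0.93 in STING-/- hearts (limma, adjusted p = 0.0415), and Sqstm1 was the 1 gene of the 97 called between STING-/-+CDDP and CDDP hearts (-0.89, limma, adjusted p = 0.0462). That call was lost with a pseudocount of 0.1, no filter, only the compared groups, eBayes without a trend, the replicate block, or when any STING-/- or STING-/-+CDDP heart, the third Saline heart, or the second or the third CDDP heart was left out. The interaction itself, -0.78, was not called (limma, adjusted p = 0.348). Optn, another autophagy receptor bound by TBK1, rose by 0.56 with cisplatin averaged over genotype (limma, adjusted p = 0.0136). Irf5 fell by 0.65 (limma, adjusted p = 0.0341) and the TBK1 adaptor Azi2 fell by 0.42 (limma, adjusted p = 0.0297). Rela, a subunit of NF-κB, rose between CDDP and Saline hearts (0.66, limma, adjusted p = 0.0474).

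Of the 18 cGAS partners and other DNA sensors, 2 were called with cisplatin averaged over genotype (11.1%, beside 19.8% of all tested genes). Hmgb2, a chromatin protein, rose with cisplatin averaged over genotype (0.55, limma, adjusted p = 0.0425) and Zbp1, a sensor of Z-form nucleic acid, fell (-1.31, limma, adjusted p = 0.00168). Xrcc6, the Ku70 subunit of the DNA end-joining complex, rose between CDDP and Saline hearts (0.50, limma, adjusted p = 0.0451). Of 9 nuclease and nucleic acid editing genes 2 were called (22.2%). Pld4, a lysosomal exonuclease, fell (-1.72, limma, adjusted p = 0.000435), as did the RNA editing enzyme Adar (-0.53, limma, adjusted p = 0.0229), and Trex2, the paralog of Trex1, was listed at 0 in every heart. Of 8 tested genes for cGAMP degradation and transport 1 was called (12.5%), the importer Slc46a1, which fell (-0.57, limma, adjusted p = 0.0144). Pld4 was 14.0 to 19.3 TPM in Saline hearts and 2.74 to 5.06 in CDDP hearts.

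Of 19 tested genes for the trafficking and modification of STING, 3 were called with cisplatin averaged over genotype (15.8%, beside 19.8% of all tested genes). Ulk1, a kinase that starts autophagy and can phosphorylate STING, rose (0.58, limma, adjusted p = 0.00482), as did Rhbdf2, which encodes iRhom2 (0.60, limma, adjusted p = 0.0233). Usp18, an interferon-induced protease that removes ISG15, fell (-1.27, limma, adjusted p = 0.000942). Of 8 tested genes for deoxynucleotide supply, the pool on which SAMHD1 acts, 3 fell and 0 rose (37.5% called). They were Dck (-0.56, limma, adjusted p = 0.0386), Dut (-0.53, limma, adjusted p = 0.0102) and Dguok (-0.38, limma, adjusted p = 0.0335), of which Dut was also called between CDDP and Saline hearts (-0.96, limma, adjusted p = 0.00365). Dut was 20.1 to 22.2 TPM in Saline and 9.25 to 12.2 in CDDP hearts. The knockout groups overlapped, at 12.3 to 16.5 TPM in STING-/- and 11.2 to 16.1 in STING-/-+CDDP hearts. The KEGG cytosolic DNA-sensing pathway of the deposited annotation has 93 genes, 6 of them among the 8 components, and of its 46 tested genes 9 (19.6%) were called with cisplatin averaged over genotype, near the 19.8% of all tested genes. Between STING-/-+CDDP and CDDP hearts 0 of the 46 were called, beside 1.22% of all tested genes. There 40 of the 46 were lower and 6 higher, while 8345 of all 13815 tested genes were lower. Their median log2 fold change was -0.24, beside -0.09 over all tested genes.

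**Figure D5:**
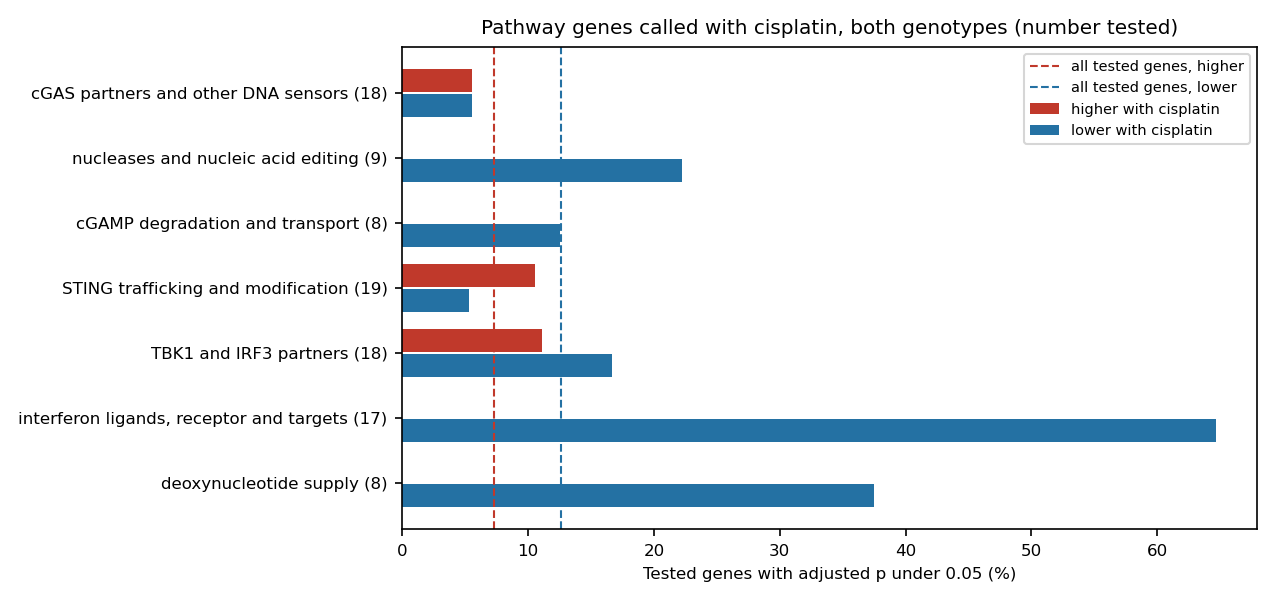
Percent of tested genes with an adjusted p under 0.05 with cisplatin averaged over genotype, for the 7 lists of other pathway genes, with the number tested in brackets. Bars to the right from 0 are genes called higher (red) or lower (blue), and dashed lines are the same shares over all 13815 tested genes (7.28% higher, 12.6% lower). The interferon list reaches 64.7% lower with 0 higher.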

How the data were processed

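Total RNA of heart tissue was sequenced by a company. The submitters' processing notes name fastp, HISAT, RSEM and the build GRCm38.p5, with no versions. The authors deposited TPM per gene, with 2 decimals and no read counts, so the depth per heart is unknown and methods for counts were not used. Pooled columns of the authors' group means were not used, and no column belonged to a sample outside the labels (0). Of 55885 gene identifiers, 55141 matched GENCODE M21 (GRCm38). Promoters came from RefSeq (GRCm38.p6).

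Values were analysed as log2(TPM + 1) in R 4.3.3 with limma 3.58.1 (functions lmFit, contrasts.fit and trended eBayes, 8 residual degrees of freedom), with a filter of TPM 1 in 3 hearts, two-sided tests and Benjamini-Hochberg adjustment. Beside the 4 pairwise contrasts and the interaction, contrasts were fitted for genotype averaged over treatment and cisplatin averaged over genotype. The median standard error of a pairwise log2 difference was 0.216. The procedure was tested on simulated data. Cgas was compared by exact permutation tests, within treatments or genotypes for the averaged contrasts (400 arrangements, smallest p 0.005). Python 3.11.15 and matplotlib 3.10.9 drew the figures.

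The members and lists were chosen with earlier results of these data known. Named were the 8 components, the called genes of the other lists up to the 4 largest per list and comparison, the 3 most similar genes per component and the 6 neighbours of Sting1. A gene that this rule names is not reported here. Mx1, Ifit2, Oasl1, Stat2, Azi2, Ifnar1, Ifnar2, Ifnb1, Ifna4, Trex2, Dcn and the genes that overlap a component fall outside this rule, and their values had been seen when they were picked. Replicate numbers mark different animals. Alternatives were no filter, a pseudocount of 0.1, a filter at TPM 5, only the compared groups, 3 other scalings, eBayes without a trend, a replicate block and each heart left out in turn.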

Additional observations from a re-analysis of the deposited data

Results flagged for a closer look

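For 1 of the 7 tested components, Tbk1, the interaction of cisplatin and genotype had an unadjusted p under 0.05 (limma). This interaction was -0.75 on the log2 scale (unadjusted p = 0.00905, limma), beside a median of -0.10 over all tested genes. Adjusted over all tested genes its p was 0.333 (limma), so it was not called. Tbk1 was higher in CDDP than in Saline hearts in 3 of 3 hearts without overlap, a pattern that 14.9% of all tested genes shared. Its STING-/-+CDDP and STING-/- hearts overlapped.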

How the results depend on the processing

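Of the 7 tested components, the call of Samhd1 with cisplatin averaged over genotype was kept under each alternative run. The call of Tbk1 between CDDP and Saline hearts was not, and there the number of components called went from 1 to 0 with no filter, with only the compared groups and with the replicate block, and to between 0 and 1 with a heart left out. Scaling by the median of ratios or by quantiles raised the components called from 0 to 1 between STING-/-+CDDP and CDDP hearts and from 1 to 2 with cisplatin averaged over genotype, where Tbk1 was added at 0.25 under both (limma, adjusted p = 0.0260 and 0.0249). Without mitochondrially encoded genes, 1 component was called between STING-/-+CDDP and STING-/- hearts in place of 0, and with a heart left out between 0 and 1. These scalings moved the median of all genes by up to 0.121 on the log2 scale, between STING-/-+CDDP and STING-/- hearts.

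Other pathway genes called between CDDP and Saline hearts went from 18 to 10 with only the compared groups and to 29 under the median of ratios and under quantiles, while the calls over all tested genes went from 2610 to 822, 3814 and 3928. Between STING-/-+CDDP and CDDP hearts the 1 call became 0 with a pseudocount of 0.1, no filter, only the compared groups, eBayes without a trend or the replicate block, 2 under quantiles, and 0 to 1 with a heart left out, beside 168 calls over all tested genes that became 129, 12, 38, 160, 67 and 669 in that order of settings and 11 to 380 with a heart left out. Between STING-/-+CDDP and STING-/- hearts, 8 became 2 with no filter and 1 to 11 with a heart left out, with 1 to 3 calls when it was a heart of either compared group, beside 129 over all tested genes that became 46 with no filter and 18 to 48 without such a heart. The cause of these changes was not tested.

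Hearts with the same number did not deviate together (18 pairs, r from -0.333 to 0.261, median -0.01). Pairs of other numbers gave r from -0.312 to 0.431 (36 pairs). These values show no shared deviation by number, but they cannot tell whether the animals were matched in some other way. The replicate block left 0 components called between CDDP and Saline hearts and changed no other count of components.

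Small uncalled differences changed sign. Under the median of ratios, without mitochondrially encoded genes and under quantiles, Samhd1 between genotypes averaged over treatment went from -0.0096 to 0.044, 0.041 and 0.064, and the interaction of Irf3 from -0.027 to 0.094, 0.014 and 0.11. Irf3 between STING-/-+CDDP and CDDP hearts went from -0.094 to 0.022 and 0.043 under the median of ratios and quantiles. Cgas between STING-/-+CDDP and STING-/- hearts went to 0.037 under the median of ratios and 0.0049 without mitochondrially encoded genes. With each heart left out in turn, Sting1 ranged from -0.18 to 0.73 between CDDP and Saline, -0.19 to 0.23 between STING-/-+CDDP and STING-/-, -0.72 to 0.18 in the interaction and -0.087 to 0.36 with cisplatin averaged. Enpp1 ranged from -0.65 to 0.036 between CDDP and Saline, -0.52 to 0.11 between STING-/-+CDDP and CDDP, -0.35 to 0.23 between STING-/- and Saline, -0.49 to 0.19 in the interaction and -0.31 to 0.011 between genotypes averaged. Irf3 ranged from -0.20 to 0.088 between STING-/- and Saline and -0.18 to 0.11 in the interaction. Trex1 ranged from -0.063 to 0.16 between STING-/-+CDDP and CDDP. Ikbke ranged from -0.30 to 0.061 between STING-/-+CDDP and STING-/- and -0.17 to 0.026 between genotypes averaged, and Samhd1 from -0.067 to 0.075 between genotypes averaged. Cgas ranged from -0.0074 to 0.061 between CDDP and Saline, -0.072 to 0.063 between STING-/-+CDDP and STING-/- and -0.021 to 0.047 with cisplatin averaged.

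With 3 hearts a group and no read counts, small changes of low genes such as Cgas and Ikbke could not be resolved.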
